A study of Mus musculus with 24 samples.

Results

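The nuclear-encoded subunits of respiratory chain complexes I to IV were followed in the livers of 24 mice. Members were all genes of the array annotation with a symbol of the form Nduf followed by a, b, c, s or v and a number, Sdha to Sdhd, Uqcr, or Cox followed by a number from 4 to 8 and a letter from a to c. This gave 59 of 12393 genes: 33 of complex I, 4 of complex II, 8 of complex III and 14 of complex IV, and each gene was read by whichever of its probe sets was brightest on average. Of the 59, 57 were bright enough to be tested, among 9167 genes tested in all. The muscle isoform Cox7a1 (3.83 to 4.27 on the log2 scale) and Cox7c (3.30 to 3.66) lay below the limit for dim probe sets on all 24 arrays and were not tested. The naming rule leaves out Cox4i1, Cyc1 and Ndufab1, and it places Ndufa4, now regarded as a complex IV subunit, with complex I. It also admits Cox7a2l, a factor that joins complexes III and IV. Probe sets annotated with several symbols were left out, so genes such as Ndufs6 and Ndufa11 have no value here.

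Complex I takes electrons from NADH and complex II, the succinate dehydrogenase of the citric acid cycle, takes them from succinate. Both pass them to ubiquinone, complex III passes them on to cytochrome c, and complex IV gives them to oxygen. Complexes I, III and IV pump protons, and the gradient drives ATP synthase. Hepatocytes are rich in mitochondria and use this chain for ATP and for the oxidation of fatty acids. Several subunits of complex IV exist as isoforms of different tissues, and Cox6a1, Cox7a2 and Cox8a are those of liver.

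The mice were female and of mixed C57BL/6x129Sv background, in 3 genotypes. Wild-type mice had only mouse CAR (gene Nr1i3), a nuclear receptor known as the constitutive androstane receptor, which controls genes of drug metabolism. The CAR.KO mice (knockout) lacked the mouse CAR gene, mCAR -/-. The CAR.AH mice (human CAR) carried a human CAR transgene under the mouse albumin promoter, which is active in hepatocytes, on the mCAR -/- background, and came from 2 breeding cycles with knockout mice. Each genotype received 4 treatments by intraperitoneal injection at 24 h intervals for 3 days. These were corn oil as vehicle, phenobarbital (spelled phenobarbitol in the labels, 100 mg/kg per day), CITCO (30 mg/kg per day), and TCPOBOP (3 mg/kg, given once on the first day, with corn oil on the remaining days). The livers were collected 6 h later than the final injection. Per the series' design text, phenobarbital moves mouse and human CAR into the nucleus, TCPOBOP is a ligand of mouse CAR and CITCO of human CAR. There were 2 mice in each of 12 groups and 1 array per mouse, so every value rests on n = 2, and that number limits the precision. The age of the mice is not given in the sources used here. Values are log2 expression, changes are log2 differences with the standard error (SE) of a limma fit over all 24 arrays, and a gene was called changed at a Benjamini-Hochberg adjusted p under 0.05 over the 9167 genes. Groups were said not to overlap when both mice of the treated group lay above, or both below, both controls.

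Nr1i3 itself ranged from 6.84 to 8.0 in wild-type mice and from 5.03 to 5.60 in the other genotypes. All 8 hepatocyte markers measured were bright on every array. The fat markers were dim on all arrays. Of 8 striated muscle markers, 5 or 6 were dim on both arrays of each group. In 2 of the 24 arrays the median correlation with the others was low: 0.970 for human CAR phenobarbital mouse 1 and 0.980 for knockout phenobarbital mouse 2, against 0.981 to 0.991 for the rest. The next lowest were the wild-type TCPOBOP mice, at 0.981 for mouse 2 and 0.983 for mouse 1. Under phenobarbital in knockout and human CAR mice, the medians over all tested members are given with and without the first 2 arrays. The main named genes are given both ways in human CAR mice only. In whole liver, fewer cells of a type and less RNA per cell cannot be told apart.

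Promoters of the 3 members called changed in these data are shown because these members mark 3 different complexes. They come from RefSeq on GRCm38.p6, and each is the 250 bases before the gene's start, 5′ to 3′ on the gene's strand, which was the minus strand for all 3. Ndufb10 (an accessory subunit of complex I) is at chr17:24724424-24724673, Sdha (the flavoprotein of succinate dehydrogenase) at chr13:74350241-74350490, and Uqcrfs1 (the Rieske iron-sulfur protein of complex III) at chr13:30545317-30545566. Capitals mark the letters GCGCA, then any base, then GCGC, on either strand, a core of the binding site of NRF1, a factor known to regulate respiratory chain genes.
Ndufb10: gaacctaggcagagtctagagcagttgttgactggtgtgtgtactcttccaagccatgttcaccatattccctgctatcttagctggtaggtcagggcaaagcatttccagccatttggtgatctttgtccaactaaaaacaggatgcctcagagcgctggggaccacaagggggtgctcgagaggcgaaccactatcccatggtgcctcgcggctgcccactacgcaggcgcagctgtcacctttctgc
Sdha: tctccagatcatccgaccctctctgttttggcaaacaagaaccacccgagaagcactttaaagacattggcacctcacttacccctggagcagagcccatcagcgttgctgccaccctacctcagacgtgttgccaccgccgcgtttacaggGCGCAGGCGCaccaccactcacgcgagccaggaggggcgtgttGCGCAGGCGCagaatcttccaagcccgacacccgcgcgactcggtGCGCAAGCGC
Uqcrfs1: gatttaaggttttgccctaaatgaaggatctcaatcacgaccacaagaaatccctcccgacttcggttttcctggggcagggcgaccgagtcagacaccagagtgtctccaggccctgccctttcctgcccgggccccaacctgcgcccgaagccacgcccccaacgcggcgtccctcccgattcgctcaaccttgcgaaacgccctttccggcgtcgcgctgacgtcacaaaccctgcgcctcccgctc
The Sdha promoter held the NRF1 core 3 times, beginning 98, 55 and 10 bases before the start, and the other two held none. Over windows of 300 bases (250 before and 50 after the start), 49 of the 59 members matched the table. The core was found in 8 of the 49 (16.3%), against 5.19% of the table's 27025 genes. The letters CCGGAAG, on either strand, read by ETS factors such as GABPA, were in 11 of the 49 (22.4%) against 9.93%. The letters AAGATGGC, on either strand, read by YY1, were in 6 (12.2%) against 3.19%. These are matches of letters and were given no test.

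The subunits varied slightly less than all tested genes. Their median SD over the 24 arrays was 0.140 log2 units against 0.165 over all tested genes, and within groups it was 0.110 against 0.143. Genes of like brightness were not compared. Cox6b2 (the testis isoform of Cox6b, SD 0.64), Ndufs5 (0.35), Ndufa12 (0.34), Ndufa6 (0.24) and Ndufb10 (0.22) had the largest SD. The heat map of all tested members shows that livers differed in how many members deviated 1 way: from 7 of 57 below their own mean (human CAR CITCO mouse 1) to 53 of 57 (human CAR phenobarbital mouse 1), with several arrays near an even split.

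**Figure D1:**
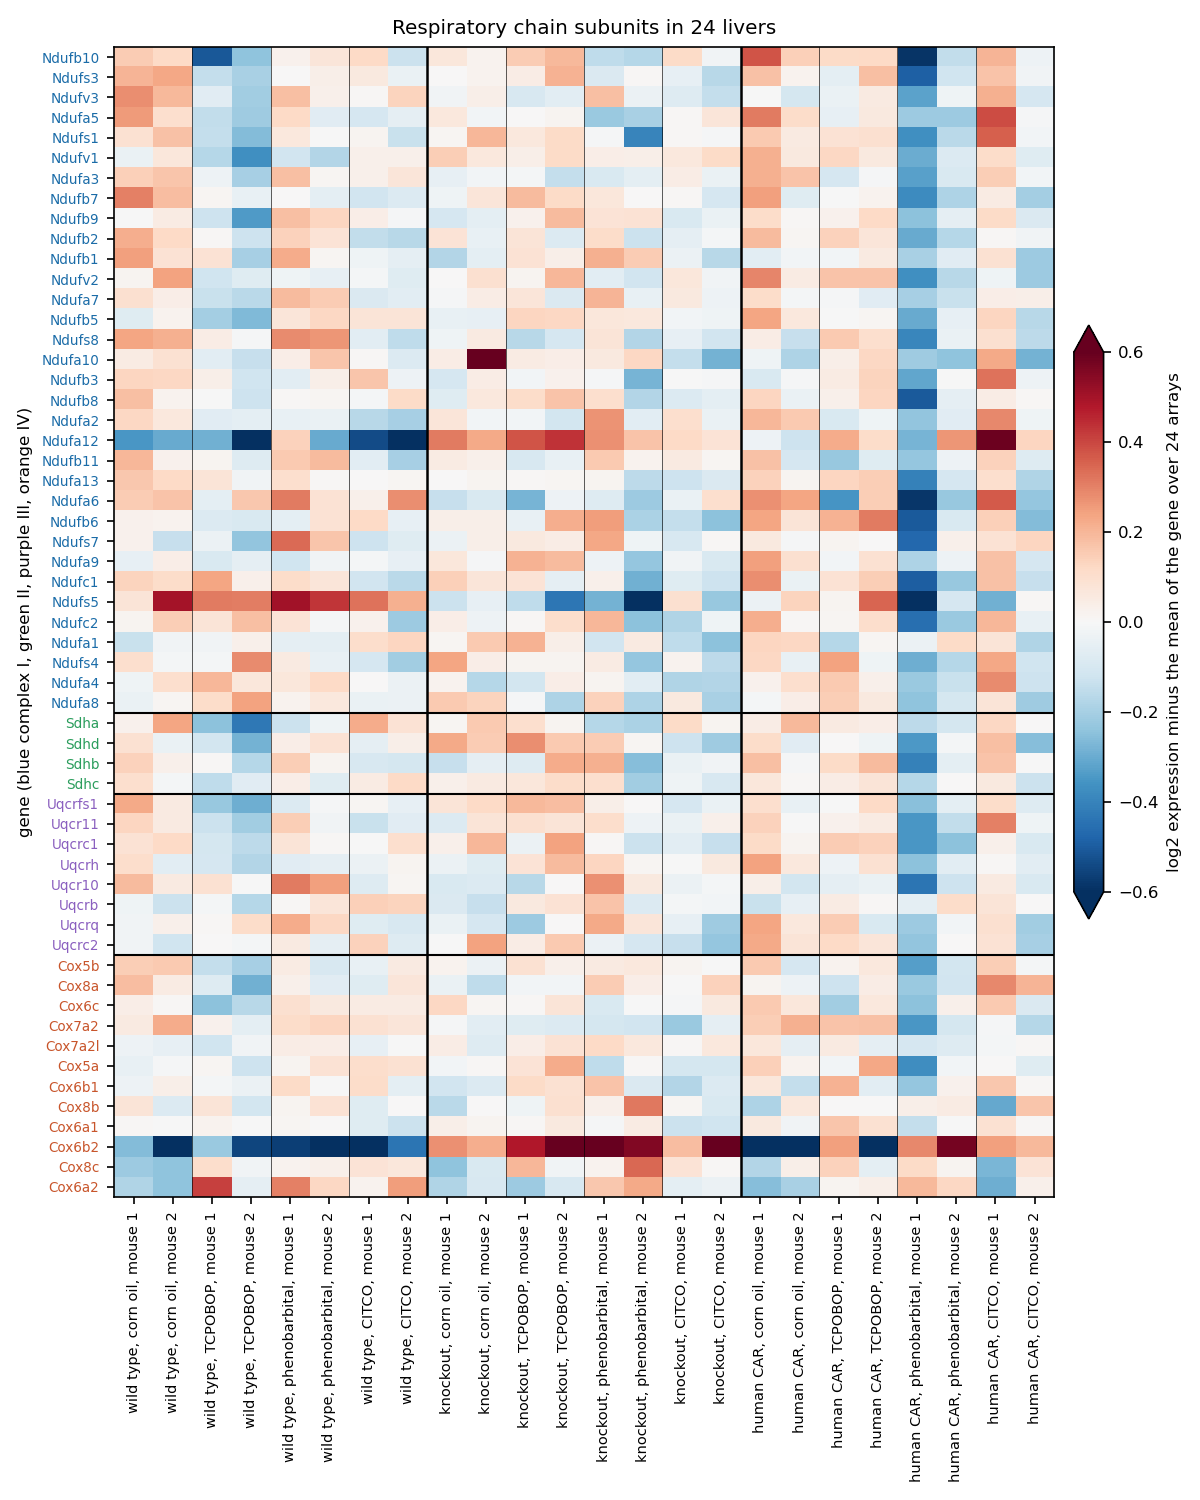
Log2 expression of the 57 tested subunits (rows, ordered within each complex by their change under TCPOBOP in wild type) on 24 arrays (columns, 2 mice per group), as the difference from the gene's mean over the arrays; colours saturate at a difference of 0.6. The array of human CAR phenobarbital mouse 1 is low in 53 of the 57 subunits, and Cox6b2 is higher on all 8 knockout arrays than on all 8 wild-type arrays.

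Under TCPOBOP in wild type, the mouse CAR ligand in mice that carry mouse CAR, 3 subunits were called lower and none higher. Ndufb10, Sdha and Uqcrfs1 fell, to 0.702, 0.722 and 0.757 of their corn oil levels on the linear scale. Most other subunits of complexes I, II and III had negative changes that did not pass the test, and those of complex IV were mixed. The 3 called members were of 57 tested, where 2.8% of all tested genes were called lower, 3.34% higher and 6.14% in either direction. Counting both directions, the subunits were called no more often than all genes.

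Ndufb10 was at 8.03 and 8.0 in the wild-type mice on corn oil and at 7.37 and 7.64 on TCPOBOP. Its change was -0.51 (SE 0.14, adjusted p = 0.0383). Sdha, which oxidises succinate and feeds electrons to ubiquinone, was at 9.83 and 10.04 on corn oil and at 9.55 and 9.37 on TCPOBOP. Both TCPOBOP mice lay below both controls for each of these genes. The change of Sdha was -0.47 (SE 0.10, adjusted p = 0.0110). A second probe set of Sdha was at 9.75 and 9.63 on corn oil and at 9.25 and 8.85 on TCPOBOP, a change of -0.64 with no overlap. Uqcrfs1, which is built late into complex III, was at 10.21 and 10.04 on corn oil and at 9.75 and 9.69 on TCPOBOP. The groups of Uqcrfs1 did not overlap either, and its change was -0.40 (SE 0.10, adjusted p = 0.0232). None of the 3 calls held with each of the 4 mice left out in turn. Ndufb10 was called without TCPOBOP mouse 2, and had -0.37 (adjusted p = 0.307) without TCPOBOP mouse 1, -0.49 (0.167) without corn oil mouse 1 and -0.53 (0.147) without corn oil mouse 2. Sdha kept its call without corn oil mouse 1 or TCPOBOP mouse 1, and had -0.36 (adjusted p = 0.148) without corn oil mouse 2 and -0.38 (0.127) without TCPOBOP mouse 2. Uqcrfs1 kept it without corn oil mouse 2, and had -0.31 (adjusted p = 0.200) without corn oil mouse 1, -0.43 (0.0766) without TCPOBOP mouse 1 and -0.37 (0.140) without TCPOBOP mouse 2. Over these settings all 3 changes stayed negative. Over the other settings the adjusted p ranged from 0.0144 to 0.0448 for Ndufb10, from 0.00489 to 0.0294 for Sdha and from 0.0122 to 0.0315 for Uqcrfs1. Ndufb10 had no value in the setting that drops probe sets of the types that can match several transcripts, since its single probe set is of such a type.

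**Figure D2:**
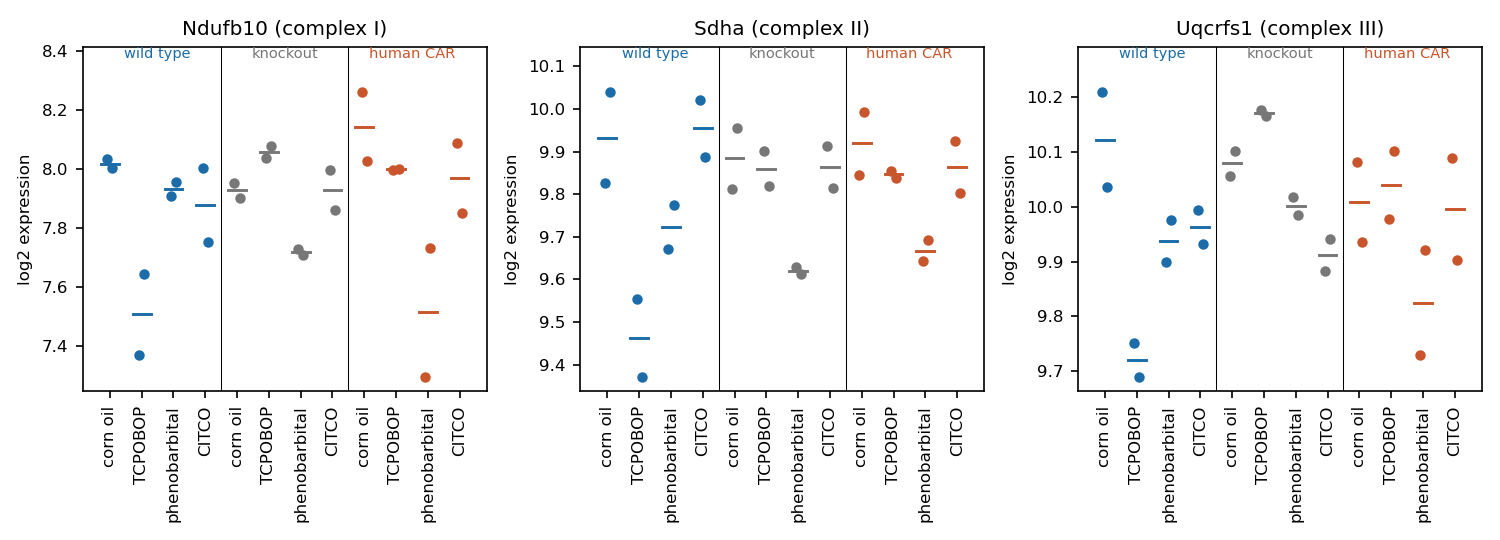
Log2 expression of Ndufb10, Sdha and Uqcrfs1 in each mouse (points, 2 per group) and the group mean (bar) over 4 treatments in wild-type, knockout and human CAR mice; the vertical axes do not start at 0. The wild-type TCPOBOP mice are below the wild-type corn oil mice for each gene, while knockout mice on TCPOBOP lie at 8.04 and 8.08 for Ndufb10 and at 10.18 and 10.17 for Uqcrfs1.

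Of the 57 subunits, 44 had a negative change and the median was -0.16, against 0.0066 over all tested genes. In 35 both TCPOBOP mice lay below both controls, where 27% of all tested genes did. In 4 they lay above both controls, where 27.2% of all genes did. At an unadjusted p under 0.05, 17 were lower (9.97% of all genes) and 1 was higher (10.2%). The CITCO comparison in wild type used the same corn oil mice, and most subunits had negative changes there too.

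Complex I had a median of -0.17, with 23 of 33 subunits lower without overlap. After Ndufb10 the lowest were Ndufs3, a core subunit of the arm that carries electrons, at -0.39 (adjusted p = 0.0761), Ndufv3 at -0.38 (0.0854) and Ndufa5 at -0.36 (0.0876). Ndufs3 was at 9.61 and 9.64 on corn oil and at 9.27 and 9.22 on TCPOBOP, with no overlap. The most positive was Ndufa8 at 0.19 (adjusted p = 0.419).

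Complex II had a median of -0.19, and all 4 of its subunits were lower without overlap on the probe set used for each. Besides Sdha, these were the membrane anchors Sdhc (-0.16, adjusted p = 0.445) and Sdhd (-0.22, 0.382), and the iron-sulfur subunit Sdhb. Another bright probe set gave 0.25 for Sdhd, the opposite sign, and another gave -0.14 for Sdhc. Complex III had a median of -0.12, with 4 of 8 lower without overlap. Its most positive subunit was the core protein Uqcrc2 at 0.065 (adjusted p = 0.812), though another bright probe set of Uqcrc2 gave -0.24.

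Complex IV had a median of -0.028, with 4 of 12 subunits lower and 2 higher without overlap. Cox5b was at 11.49 and 11.50 on corn oil and at 11.20 and 11.14 on TCPOBOP, -0.32 (adjusted p = 0.0772). Of its 5 other probe sets, 4 were above the dim limit on at least 2 arrays, and they gave -0.36, -0.29, -0.056 and 0.039. Cox8a, the liver form of subunit VIII, changed by -0.30 (adjusted p = 0.109) on its main probe set and by -0.30 on another bright one. The muscle isoform Cox6a2 was at 6.92 and 6.85 on corn oil and at 7.51 and 7.04 on TCPOBOP, 0.39 (adjusted p = 0.112). It passed, at 0.62 (adjusted p = 0.0215), without TCPOBOP mouse 2. The 3 striated muscle markers bright enough to test were positive too (median 0.24, none called), and the 8 markers summed to 187 to 211 on corn oil and 217 to 225 on TCPOBOP; their part in the result was not tested. The testis isoform Cox8c was at 6.78 and 6.76 against 7.11 and 6.98, 0.27 (adjusted p = 0.271). Among 53 other bright probe sets of the members, 37 were negative, 38 had the sign of the probe set used, and their median was -0.13.

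The shift was not the same in the 2 treated mice. The median deviation of the members from their own means was -0.035 on TCPOBOP mouse 1 and -0.12 on TCPOBOP mouse 2, and 0.087 and 0.051 on the corn oil mice. For comparison, the SD of such array medians within groups was 0.072 over the series. Without TCPOBOP mouse 2 the median change was -0.10, and without mouse 1 it was -0.20. In the same comparison 7 of 8 hepatocyte markers were negative, with a median of -0.21 and none called. Their summed level on the linear scale was 41446 to 47355 on corn oil and 38583 to 40581 on TCPOBOP. Endothelial markers were negative in 7 of 7, with a median of -0.32 and a summed level of 1230 to 1280 on corn oil and 964 to 1192 on TCPOBOP, and none was called. Summed levels also lay apart for erythroid markers (411 to 697 on corn oil, 315 to 341 on TCPOBOP) and pancreas markers (162 to 193, 136 to 160). The same held for neutrophil markers (228 to 244, 246 to 257), lymphocyte markers (134 to 142, 150 to 168) and fat markers (46.3, 50.3 to 55.2). The part of these markers in the result was not tested. The 3′ minus 5′ signal of the actin and Gapdh control probe sets, a sign of RNA quality, was 0.368 and 0.477 on corn oil and 0.415 and 0.360 on TCPOBOP, so the groups overlapped.

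In knockout mice 0 of 57 subunits were called under TCPOBOP in limma, where 0.0764% of all genes were (0.0327% higher, 0.0436% lower). At an unadjusted p under 0.05 there were 0 higher (5.17% of all genes) and 0 lower (6.25%). The median was 0.039, with 33 of 57 positive, 21 higher without overlap (27.9% of all genes) and 7 lower (27.1%). Kupffer cell markers were negative in 9 of 9 in this comparison (median -0.96, 1 called lower), with a summed level of 3225 to 3820 on corn oil and 1499 to 2401 on TCPOBOP. Also lower without overlap were endothelial (1211 to 1327, 1070 to 1107) and stellate sums (1166 to 1773, 968 to 1004). So were neutrophil (255 to 315, 207 to 236) and pancreas sums (134 to 149, 118 to 123). Higher without overlap were lymphocyte (134 to 140, 156 to 161) and striated muscle sums (201 to 204, 219 to 249). Fat sums were higher too (43.9 to 46.4, 49.6 to 54.8). The hepatocyte, erythroid and cholangiocyte sums overlapped. The part of these markers in the values was not tested. The 3 genes that fell in wild type were followed here. Ndufb10 was at 7.95 and 7.90 on corn oil and at 8.04 and 8.08 on TCPOBOP. Sdha was at 9.81 and 9.95 against 9.90 and 9.82, and Uqcrfs1 at 10.06 and 10.10 against 10.18 and 10.17. Only Sdha had overlapping groups among the 3. Their changes were 0.13 (95% interval -0.16 to 0.42), -0.024 (-0.24 to 0.20) and 0.092 (-0.12 to 0.30).

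The difference of the TCPOBOP effect, wild type minus knockout, was tested itself. No subunit passed in limma, where 1.95% of all genes did, and at an unadjusted p under 0.05 there were 12 lower (4.96% of all genes) and 1 higher (6.96%). The median difference was -0.20 against -0.0041 over all genes, with 45 of 57 negative. In the same difference Kupffer cell markers were positive in 9 of 9 (median 0.77, 1 called) and hepatocyte markers negative in 7 of 8 (median -0.18, none called), and their part in it was not tested. Uqcrfs1 had -0.49 (95% interval -0.79 to -0.19, adjusted p = 0.0942), Ndufb10 -0.64 (-1.06 to -0.22, 0.129) and Sdha -0.45 (-0.76 to -0.14, 0.169). Ndufb10 and Uqcrfs1 passed in the settings with cyclic loess normalisation and with array weights, and over the settings without a left-out mouse their adjusted p ranged from 0.0329 to 0.166 and from 0.0265 to 0.118.

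Under TCPOBOP in human CAR mice none of the 57 subunits was called in limma (0% of all genes called). At an unadjusted p under 0.05 there were 1 lower (3.35%) and 0 higher (3.31%). The median was -0.0021, with 11 higher (21.2% of all genes) and 9 lower (17.1%) without overlap. Ndufb10 was at 8.26 and 8.03 on corn oil and at 8.0 and 8.0 on TCPOBOP, -0.14 (adjusted p = 0.857). Against knockout the difference of effects had 0 members called (0% of all genes), 2 lower (2.01%) and 0 higher (3.02%) at an unadjusted p under 0.05, and a median of -0.061. The plot of changes by complex shows the 3 genotypes side by side.

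**Figure D3:**
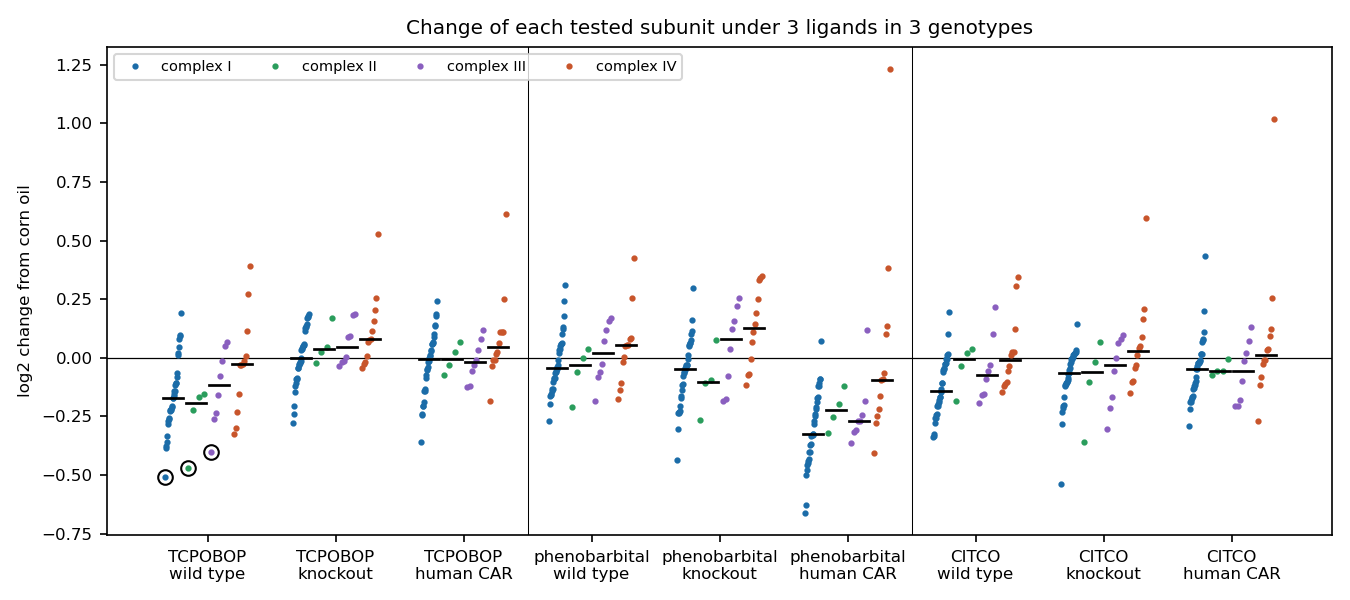
Log2 change from corn oil of each of the 57 tested subunits (points, sorted within complexes I, II, III and IV from left to right) under TCPOBOP, phenobarbital and CITCO in 3 genotypes, with the median of each complex as a black bar. Circles mark the 3 subunits called changed, all under TCPOBOP in wild type; the medians of complex I are -0.17 there and -0.33 under phenobarbital in human CAR mice.

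Other mitochondrial genes were taken from lists of the machinery around the chain. Under TCPOBOP in wild type, where 2.8% of all tested genes were called lower and 3.34% higher, their counts were these. Of 18 ATP synthase genes 1 fell, 0 rose and the median was -0.19. It was Atp5h, a stalk subunit, at 9.92 and 10.02 on corn oil and 9.37 and 9.52 on TCPOBOP, -0.52 (adjusted p = 0.00565). With its probe sets averaged it had -0.32 (adjusted p = 0.0817). Among 8 electron carriers and subunits outside the naming rule, 1 fell, 0 rose and the median was -0.16. It was Etfdh, the oxidoreductase that brings electrons from fatty acid oxidation to ubiquinone, at 8.24 and 8.86 on corn oil and 7.16 and 7.48 on TCPOBOP, -1.23 (adjusted p = 0.00198). Of 29 tested assembly factors 1 fell and 0 rose, with a median of -0.12: Surf1, needed to build complex IV, at -0.38 (adjusted p = 0.0357), which with cyclic loess was -0.32 (0.0548).

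Of 13 citric acid cycle genes, 2 fell (2.8% of all genes), 1 rose (3.34%) and the median was -0.22. Ogdh (oxoglutarate dehydrogenase) fell by 0.70 (adjusted p = 0.00109) and Idh3b (a subunit of NAD-dependent isocitrate dehydrogenase) fell by 0.54 (adjusted p = 0.00443). Mdh2 (malate dehydrogenase) rose by 0.39 (adjusted p = 0.0446), and lost the call with arrays centred on their median (0.34, adjusted p = 0.0973), with the replicate number as a block (0.0501) and with a variance trend (0.0558). Among 74 mitochondrial ribosomal proteins 1 rose, 0 fell and the median was -0.12. That gene, Mrpl52, had 0.50 (adjusted p = 0.0153), but its probe sets averaged gave 0.18 (0.310), and the setting without probe sets that can match several transcripts gave -0.041 (0.934). None of 18 import and outer membrane genes passed (median -0.071, 0 at an unadjusted p under 0.05). None of 14 regulators of mitochondrial biogenesis did either (median -0.10, 2 lower at an unadjusted p under 0.05). At that level 9.97% of all genes were lower and 10.2% higher. Nrf1, the gene of the factor named above, had -0.049 and its groups overlapped. Ppara, a receptor that drives fatty acid oxidation, had -1.28 (adjusted p = 0.0616). With each of the 4 mice left out in turn, Etfdh, Ogdh and Idh3b kept their calls. Atp5h lost it without corn oil mouse 2 (adjusted p = 0.0666) or TCPOBOP mouse 1 (0.0718), and Mdh2 kept it only without corn oil mouse 2. Surf1 (adjusted p 0.101 to 0.195) and Mrpl52 (0.0580 to 0.122) lost it each time. The lists stand beside a median of 0.0066 over all genes. In knockout the medians of these lists lay between -0.068 and 0.069, and none of their genes was called, where 0.0764% of all genes were. The mitochondrial genome, which encodes the other core subunits, was read only by 1 gene, ND5, with 0.21.

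**Figure D4:**
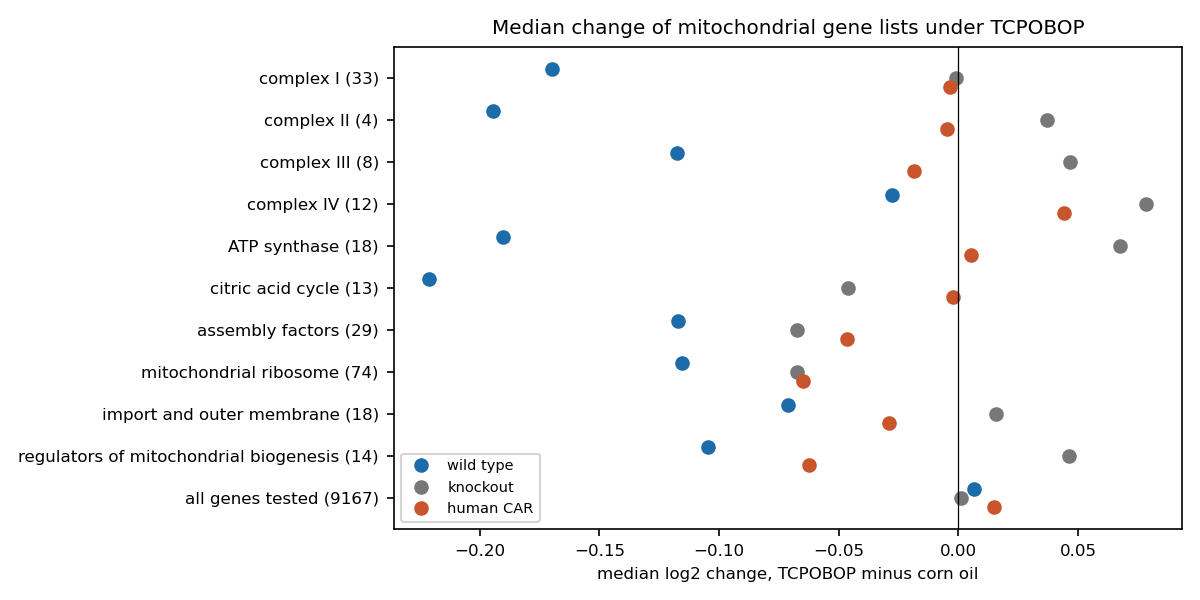
Median log2 change under TCPOBOP against corn oil (horizontal axis) of the subunits of each complex, of 6 other mitochondrial lists and of all 9167 genes tested, in 3 genotypes (colours); the number of genes tested is in brackets. In wild type the medians run from -0.22 for the citric acid cycle to 0.0066 for all genes tested, with -0.028 for complex IV and -0.19 for ATP synthase.

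Under phenobarbital in wild type none of the subunits was called. In limma 0 of 57 were called, where 1.47% of all genes were (0.895% higher, 0.578% lower), and at an unadjusted p under 0.05 there were 2 higher (6.13%) and 1 lower (7.44%). The median was -0.019 (complex I -0.044, II -0.031, III 0.022, IV 0.053), with 14 higher (24.9% of all genes) and 16 lower (27.2%) without overlap. Cox6a2 was the most positive, from 6.92 and 6.85 on corn oil to 7.40 and 7.22, 0.42 (adjusted p = 0.163). Ndufs7, a core subunit of complex I, had 0.31 (adjusted p = 0.330) and Ndufb7 -0.27 (0.308). In complexes II and III the lowest were Sdha at -0.21 (adjusted p = 0.393), from 9.83 and 10.04 to 9.67 and 9.78, and Uqcrfs1 at -0.18 (0.442), from 10.21 and 10.04 to 9.90 and 9.98. Both genes were lower in both phenobarbital mice than in both controls, short of the test. The highest were Sdhd at 0.039 and Uqcrq at 0.17 (adjusted p = 0.587). The comparison shares its controls with that of TCPOBOP. Around the chain, Ogdh fell by 0.54 (adjusted p = 0.0246) and Polg, the polymerase of mitochondrial DNA, fell by 0.55 (0.0338), which with its probe sets averaged was -0.26 (0.276). Both lost the call without any of the 4 mice, at adjusted p of 0.117 to 0.190 for Ogdh and 0.147 to 0.227 for Polg. The difference between wild type and knockout had 0 members called (0.153% of all genes), 1 lower (4.44%) and 0 higher (4.7%) at an unadjusted p under 0.05, and a median of -0.0026, which was -0.052 without knockout phenobarbital mouse 2.

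Under phenobarbital in knockout mice none of the 57 was called in limma either, where 0.731% of all genes were. At an unadjusted p under 0.05, 4 were higher (12.2% of all genes) and 2 lower (9.05%). The median was -0.033 against 0.029 over all genes, and 14 were higher (30.9% of all genes) and 15 lower (20.9%) without overlap. Ndufs5, a complex I subunit, was at 7.98 and 8.06 on corn oil and at 7.82 and 7.34 on phenobarbital, -0.44 (adjusted p = 0.252). Sdha was at 9.81 and 9.95 against 9.63 and 9.61, -0.26 (adjusted p = 0.170). Both were lower without overlap. In complexes III and IV the lowest were Uqcrc2 at -0.19 and Cox6c at -0.12. The most positive were Cox8c at 0.35 (adjusted p = 0.163), Ndufb1 at 0.30 (0.179), Uqcr10 at 0.26 (0.213) and Sdhb at 0.075 (0.789). Other bright probe sets of Uqcr10 gave -0.34 and -0.023. Mouse 2 of this group lay below mouse 1 in 44 of 57 subunits. Without mouse 2 the median was 0.060 with 0 called, and without mouse 1 it was -0.073 with Ndufs1 lower and Cox8c higher, where 933 of 9167 genes were called. Kupffer cell markers were negative in 9 of 9 in this comparison (median -1.21, 3 called lower), summing to 3225 to 3820 on corn oil and 1168 to 2130 on phenobarbital. Hepatocyte markers were positive in 7 of 8 (median 0.21, none called). Hepatocyte sums lay apart too (44026 to 46354 on corn oil, 47417 to 51624 on phenobarbital). Lower without overlap were endothelial (1211 to 1327, 875 to 1079) and stellate sums (1166 to 1773, 864 to 964). So were erythroid (270 to 381, 174 to 181), neutrophil (255 to 315, 225 to 228) and pancreas sums (134 to 149, 91.6 to 109). Lymphocyte, cholangiocyte, striated muscle and fat sums were higher without overlap. The part of these markers was not tested.

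In human CAR mice on phenobarbital most subunits had lower values than on corn oil, but none passed the test. The 57 changes had a median of -0.25 against -0.010 over all genes, and 51 were negative. Both treated mice lay below both controls in 43 (26.2% of all genes) and above in 2 (22.4%). In limma 0 were called, where 0.665% of all genes were, and at an unadjusted p under 0.05 there were 31 lower (13.9%) and 2 higher (7.27%). The medians were -0.33 in complex I, -0.22 in II, -0.27 in III and -0.094 in IV, with 27 of 33, 3 of 4, 7 of 8 and 6 of 12 lower without overlap.

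Ndufb10 was at 8.26 and 8.03 on corn oil and at 7.30 and 7.73 on phenobarbital, -0.63 (SE 0.14, adjusted p = 0.0501). Ndufa6, an accessory subunit of complex I, was at 9.12 and 9.08 against 8.26 and 8.62, -0.66 (SE 0.19, adjusted p = 0.0869). Cox7a2, the liver form of subunit VIIa, was at 10.79 and 10.85 against 10.29 and 10.53, -0.41 (SE 0.10, adjusted p = 0.0581). None of these groups overlapped, and mouse 1 was the lower of the phenobarbital pair in each. The lowest of complexes II and III were Sdhb at -0.32 (adjusted p = 0.235) and the core protein Uqcrc1 at -0.36 (0.0869), and the highest Sdhc at -0.12 and Uqcrb at 0.12. The highest of complex I was Ndufa12 at 0.070. Other bright probe sets gave -0.30 for Sdhc, -0.27 for Uqcrb, and -0.40 and -0.11 for Ndufa12. Cox6b2 lay at 5.79 and 6.08 on phenobarbital, above its corn oil values of 4.59 and 4.82, which were both below the dim limit, so no size is given. Without the 2 arrays that stand apart, Ndufb10 had -0.41 (adjusted p = 0.395), Ndufa6 -0.48 (0.541), Cox7a2 -0.28 (0.461), Sdhb -0.15 (0.805), Uqcrc1 -0.31 (0.461), Sdhc -0.033, Uqcrb 0.20 and Ndufa12 0.34.

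The size of this shift depended on which mice were included. Mouse 1 lay below mouse 2 in 54 of 57 subunits, by a median of 0.20 where all genes differed by 0.041. On mouse 1, 53 of 57 subunits were below their own mean with a median deviation of -0.29, and on mouse 2 the figures were 45 and -0.067. Without mouse 1 the median change was -0.15 with 0 called, and without mouse 2 it was -0.37 with 21 of 57 called, where 1311 of 9167 genes were called. Without corn oil mouse 2 it was -0.34 with Ndufb10 called (adjusted p = 0.0493), where 96 genes were, and without corn oil mouse 1 it was -0.21 with 0 called. With cyclic loess normalisation in place of the deposited scaling it was -0.092. Among 53 other bright probe sets of the members, 46 were negative with a median of -0.21.

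The marker lists had these values in the same comparison. The 5 neutrophil markers had a median change of 0.94, none called, and summed to 226 to 408 on corn oil and 256 to 1338 on phenobarbital. Kupffer cell markers were negative in 8 of 9 (median -0.29, 1848 to 2412 against 1543 to 1971), and endothelial markers in 6 of 7 (median -0.38, 1129 to 1133 against 600 to 926). Hepatocyte markers were negative in 5 of 8 (median -0.16, 47115 to 48545 against 44392 to 44533). The 2 cholangiocyte markers bright enough to test were positive (median 0.52, and 108 to 120 against 143 to 165 summed over 4), with Epcam dim throughout. No marker of these lists was called. Summed levels also lay apart for erythroid markers (396 to 410 on corn oil, 296 to 316 on phenobarbital) and lymphocyte markers (136 to 145, 153 to 170). The same held for striated muscle markers (208 to 209, 216 to 229) and fat markers (44.5 to 47.0, 51.7 to 54.4). Each of these further lists holds dim markers. The part of any marker in the result was not tested. The 3′ to 5′ difference was 0.547 and 0.605 on phenobarbital and 0.554 and 0.469 on corn oil. The difference of the phenobarbital effect between human CAR and knockout mice had a median of -0.22 against -0.059 over all genes, with 0 members called (0.0109% of all genes), and 15 lower (4.93%) and 0 higher (2.97%) at an unadjusted p under 0.05. In this difference Kupffer cell markers were positive in 9 of 9 (median 0.87) and hepatocyte markers negative in 7 of 8 (median -0.24), none called, and their part in it was not tested. The members' median was -0.14 without human CAR phenobarbital mouse 1 and -0.34 without mouse 2.

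**Figure D5:**
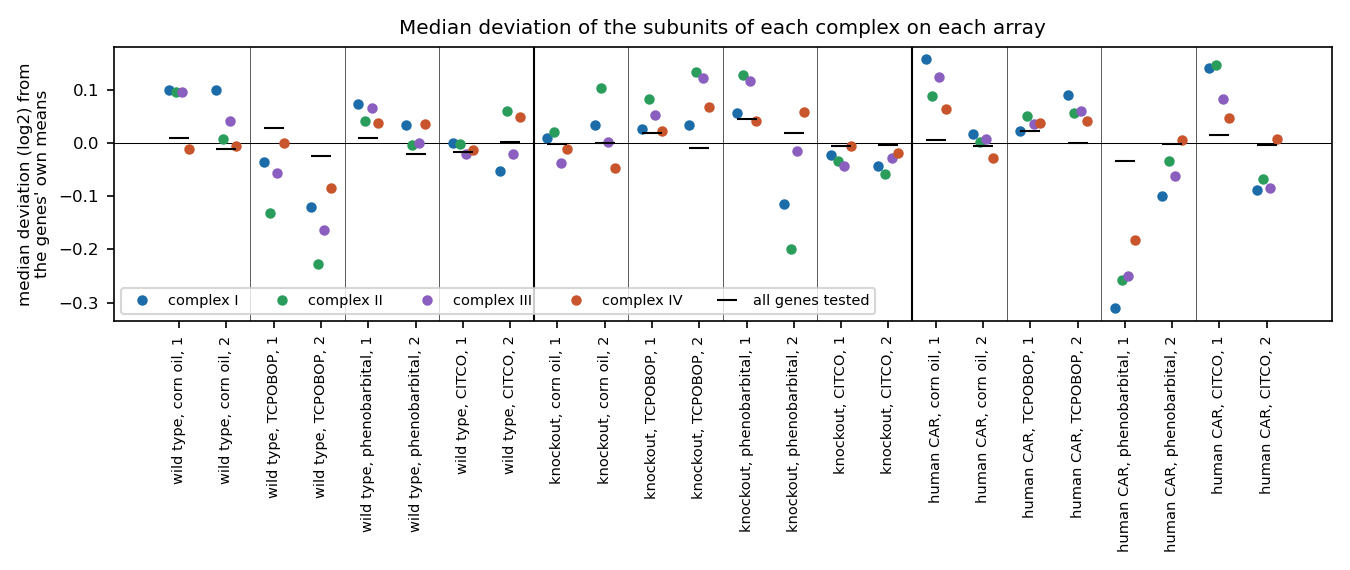
Median deviation of the subunits of each complex from their own means over the 24 arrays (coloured points, log2 units) for each array, with the same over all genes tested (black bars). The members of human CAR phenobarbital mouse 1 are lowest, at -0.31 for complex I and -0.18 for complex IV, while the median of all genes on that array is -0.034.

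Under CITCO, the ligand of human CAR, no subunit was called in any genotype in the main fit, where few genes were called at all. In wild type 0 of 57 were called in limma (0.0327% of all genes), the median was -0.088, and 43 were negative. At an unadjusted p under 0.05, 5 were lower (3.89%) and 3 higher (3.38%). Without overlap 25 were lower (24.2% of all genes) and 7 higher (21.4%), and complex I had a median of -0.14. In knockout 0 were called (0.0327% of all genes), 4 were lower (5.56%) and 0 higher (3.84%) at an unadjusted p under 0.05, the median was -0.042, and 21 were lower (26.9%) and 9 higher (25.8%) without overlap. In human CAR mice, which carry its receptor, 0 were called (0.0873% of all genes), 2 were lower (3.92%) and 3 higher (3.58%) at an unadjusted p under 0.05, the median was -0.025, and 7 were lower (14.8%) and 5 higher (14.5%) without overlap. The pair of human CAR mice on CITCO differed, with median deviations of 0.12 for mouse 1 and -0.071 for mouse 2. Without mouse 1 the median change was -0.15 and without mouse 2 it was 0.058. The difference of the CITCO effect from knockout had 0 members called in human CAR mice (0.0327% of all genes), with 0 lower (2.89%) and 2 higher (3.89%) at an unadjusted p under 0.05. In wild type it had 0 called (0.0218%), with 0 lower (2.69%) and 2 higher (2.95%) on that measure.

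On corn oil no subunit passed the test between genotypes. Knockout minus wild type had 0 called in limma (0.229% of all genes), 1 lower (2.73%) and 2 higher (3.84%) at an unadjusted p under 0.05, and a median of -0.072, with 21 lower (20% of all genes) and 9 higher (21.8%) without overlap. Human CAR minus wild type had 0 called (0.0545%), 2 lower (3.63%) and 0 higher (4.1%) at an unadjusted p under 0.05, and a median of -0.0032, with 8 lower (18%) and 13 higher (18.5%) without overlap. Human CAR minus knockout had 0 called (0.12%), 2 lower (3.75%) and 2 higher (2.71%) at an unadjusted p under 0.05, and a median of 0.049, with 6 lower (19.5%) and 19 higher (19.1%) without overlap.

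The isoforms of other tissues were dim in part. Cox7a1, the muscle form of subunit VIIa, was dim throughout. Cox8b, the muscle form of subunit VIII, lay between 4.76 and 5.38 and at or below the dim limit on 5 arrays. Cox6a2, the muscle form of subunit VIa, lay between 6.80 and 7.51, and Cox8c between 6.73 and 7.35. The liver forms Cox6a1 (11.34 to 11.66), Cox7a2 (10.29 to 10.86) and Cox8a (10.74 to 11.31) and the general form Cox6b1 (10.65 to 11.10) were bright on all arrays, though levels of different probe sets cannot be ranked. Ndufa4 lay between 10.28 and 10.79 and Cox7a2l between 8.34 and 8.58, and neither was called in any comparison. Cox7c, a subunit of complex IV in all tissues, was dim on both of its probe sets.

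Cox6b2 had the largest SD over the arrays. It lay between 4.71 and 5.28 (median 4.95) in the 8 wild-type mice, while the 8 knockout mice ran from 5.69 to 7.01 (median 6.02) and did not overlap with them. On the 8 human CAR arrays it ran from 4.59 to 6.08 (median 5.72), and 8 of the 24 arrays were at or below the dim limit. On corn oil it was at 5.24 and 4.76 in wild type, 5.78 and 5.72 in knockout and 4.59 and 4.82 in human CAR mice. Of these, 1 wild-type and both human CAR values were below the dim limit, so no size is given. Neither knockout against wild type (adjusted p = 0.729) nor human CAR against knockout (0.468) passed the test.

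Ndufa12, an accessory subunit of complex I, was read differently by its probe sets. The brightest lay between 8.45 and 9.23 in wild type and between 9.18 and 9.53 in knockout, and on corn oil knockout was above wild type by 0.59 (SE 0.18, adjusted p = 0.393). Another lay between 8.53 and 8.79 in wild type and between 7.97 and 8.34 in knockout, the opposite order with no overlap. One more ran from 8.51 to 9.12 in wild type and from 8.51 to 8.98 in knockout, and the last was dim. The genotypes of Ndufa12 therefore have no settled order here. Ndufs5, with 1 probe set, lay between 8.18 and 8.61 (median 8.43) in wild type, 7.34 and 8.20 (median 7.92) in knockout and 7.30 and 8.46 (median 8.09) in human CAR mice, and the wild-type and knockout ranges met at their ends.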

How the data were processed

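Liver RNA was isolated with TRIzol and labelled with biotin, per the labels' protocols. The deposited log2 table covers 22690 probe sets and 24 arrays, and the authors' software was R 2.15.0 with RMA, per the submitters' processing notes. Values ran from 2.03 to 14.1 with 0 missing and were used unchanged. After removal of 64 control probe sets, 20380 had 1 gene symbol in the platform annotation, 691 several, and 1555 were unnamed here. The brightest probe set on average stood for each of 12393 genes. Genes above the 40th percentile of the array on 2 or more arrays, 9167 in all, were tested.

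With limma 3.58.1 (R 4.3.3), 12 group means were fitted with 12 residual degrees of freedom, and 18 comparisons were drawn from the fit. Adjustment followed Benjamini and Hochberg, separately for each comparison. The steps were tested on simulated arrays, in which genes varied independently and the added changes were larger than those of the called members. That run does not show how often changes of the observed size are found. Over 276 pairs of arrays the largest share of equal values was 0.0485%, so none were copies. The design text gives 1 mouse per array. Replicate numbers did not pair the mice: 17 of 66 group pairs had a correlation of deviations above 0.1 (-0.45 to 0.42).

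The members, the lists and the tests were chosen with earlier results of these data known. Named members were those called, the most positive and negative of each complex in 4 comparisons, and tissue isoforms. The other probe sets of Cox5b, Cox8a, Sdhc, Sdhd, Uqcrc2, Uqcr10 and Uqcrb were named after their values were seen. So were Ndufs3, Ndufv3, Ndufa5, Ndufs1, Ndufs5, Ndufa12, Nrf1 and Ppara. Lists covered ATP synthase, carriers, assembly factors, regulators, citric acid cycle, mitochondrial ribosome and genome, import, and 11 lists of cell type markers. Alternatives were cyclic loess, median centring, looser and stricter dim filters, averaged probe sets, dropping probe sets of types that can match several transcripts, a variance trend, array weights, a replicate block, fewer arrays and leaving out each mouse. Figures were drawn in Python 3.11.15 (matplotlib 3.10.9).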

Additional observations from a re-analysis of the deposited data

Results flagged for a closer look

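In the lists around the chain, 3 genes had TCPOBOP effects that differed between wild-type and knockout mice by the test of the difference itself. Of all 9167 tested genes, 179 (1.95%) passed that test. Idh3b was at 8.77 and 8.78 on corn oil and 8.25 and 8.22 on TCPOBOP in wild type, against 8.78 and 8.76 and then 8.82 and 8.93 in knockout, a difference of -0.65 (SE 0.15, adjusted p = 0.0281). Etfdh was at 8.24 and 8.86 against 7.16 and 7.48 in wild type, and 8.31 and 8.67 against 8.55 and 8.45 in knockout, a difference of -1.25 (SE 0.30, adjusted p = 0.0444). Ppara was at 8.67 and 8.79 against 7.46 and 7.43 in wild type, and 8.29 and 7.69 against 8.83 and 9.02 in knockout, a difference of -2.22 (SE 0.55, adjusted p = 0.0469). The change of Ppara within wild type (-1.28) and within knockout (0.93) did not pass on its own. With each of the 8 mice left out in turn, Idh3b (adjusted p 0.0537 to 0.125) and Ppara (0.0676 to 0.193) lost the call each time, and Etfdh kept it only without wild-type corn oil mouse 1 (0.0174). Centring arrays on their median also ended the call of Etfdh (0.0605) and Ppara (0.0538), and averaging probe sets that of Idh3b (-0.60, adjusted p = 0.113).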

How the results depend on the processing

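The 3 calls under TCPOBOP in wild type held in every setting that kept all of that comparison's mice and measured the gene, and the median over members stayed negative. The members lower without overlap numbered 35 in the main fit and 22 to 38 over 6 other settings, not all of which measured every member. Over the settings that kept all of that comparison's mice, 415 to 1065 genes were called in all, against 563 in the main fit. The number of members called there was 3, and 7 with array weights, 5 with the genotype's own arrays and 5 without the 2 arrays that stand apart. Cyclic loess added Ndufv3, and centring arrays on their median added Cox5b. The lowest count was 2, without probe sets that can match several transcripts, which leaves Ndufb10 unmeasured. Leaving out each mouse gave 1 to 2. Without probe sets of types that can match several transcripts, Cox5b was 0.039 and Mrpl52 -0.041 under TCPOBOP in wild type, through other probe sets. Sdha under TCPOBOP in knockout was 0.018 with cyclic loess and 0.034 with the mean of probe sets, and -0.095 to 0.047 with a mouse left out. The difference of the TCPOBOP effect between wild type and knockout had 2 members called (Ndufb10 and Uqcrfs1) with array weights and 2 with cyclic loess.

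Under phenobarbital in human CAR mice the median over members was -0.092 with cyclic loess, -0.15 without the 2 arrays that stand apart, and -0.37 to -0.15 with a mouse left out. The members lower without overlap numbered 43 in the main fit and 27 to 44 over 6 other settings. Its count was 3 with arrays centred on their median (Cox7a2, Ndufa3, Ndufb10), 1 with the mean of probe sets (Cox7a2), 1 with a stricter dim filter (Ndufb10), 1 without probe sets that can match several transcripts (Cox7a2), and 0 to 21 with a mouse left out. The difference from knockout had a median of -0.13 with cyclic loess and -0.34 to -0.14 with a mouse left out, which gave 0 to 1 called. In knockout, phenobarbital had a median of 0.060 without the 2 arrays that stand apart and -0.073 to 0.060 with a mouse left out, which gave 0 to 2 called. For CITCO in human CAR mice the median ran from -0.15 to 0.058 with a mouse left out, and its difference from knockout from -0.055 to 0.11. In knockout on CITCO, 2 members (Ndufa10 and Sdhd) were called with array weights. The cause of these shifts was not tested.

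With the replicate number as a block, 3 members were called under TCPOBOP in wild type: Ndufb10 (adjusted p = 0.0448), Sdha (0.0145) and Uqcrfs1 (0.0288). Among other named genes the block ended the call of Mdh2 (0.0501), and of the differences of Etfdh (0.0505) and Ppara (0.0507). Where a left-out mouse leaves 1 in a group, that mouse is assumed to vary like the others. With 2 mice per group, changes of the size of the SE (0.10 to 0.14 for the 3 called members) could not be detected. Larger changes did not pass either. Under TCPOBOP in wild type Cox5b had -0.32 (SE 0.10, adjusted p = 0.0772). Under phenobarbital in human CAR mice Ndufa6 had -0.66 (SE 0.19, adjusted p = 0.0869). A subunit without a call is therefore not shown to be unchanged. Probe sets below the dim limit, such as those of Cox7c, were not tested.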
